A study of Homo sapiens with 5 samples.

Results

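Desmosome genes were compared between HCC827/GR cells, which resist gefitinib, and the HCC827 cells they came from. The rule named 10 genes, which are DSP, DSG2, DSG3, DSC2, DSC3, JUP, PKP1, PKP2, PKP3 and PERP, and for each symbol the entry with the highest mean FPKM over the libraries was taken. Of these, 9 had an entry among the 37181 genes or assembled loci of the deposited table and 8 reached the mean of 0.5 FPKM needed for the test. PKP1 was not analysed here, and DSG3 stayed below the filter. HCC827 is an established human lung adenocarcinoma line that carries an exon 19 deletion of EGFR. The paper's text does not say whether HCC827/GR cells kept this deletion. HCC827/GR cells were derived from HCC827 by treatment with rising doses of gefitinib, an inhibitor of the EGFR kinase, for more than 6 months. The resistant group therefore stands for 1 selected line. RNA was sequenced in 3 libraries of HCC827/GR cells (replicates 1, 2 and 3) and 2 libraries of parental cells (labelled GS, replicates 2 and 3). The labels do not say whether replicates came from separate cultures, so the p-values measure the spread between these libraries, which may be technical. FPKM, the number of fragments scaled by gene length and by the size of the library, carries no read counts, and the depth of each library is therefore unknown.

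Desmosomes are spot-like junctions that rivet neighbouring epithelial cells together and tie the junction to the keratin filaments inside each cell. Desmogleins (DSG) and desmocollins (DSC) are calcium-dependent cadherins that span the membrane and bind their counterparts on the next cell. Inside the cell, plakoglobin (JUP) and the plakophilins (PKP), which are armadillo-repeat proteins, bind the cadherin tails, and desmoplakin (DSP) links them to keratins. PERP is a tetraspan membrane protein found in desmosomes and a known target of p53 and p63. DSG2 and DSC2 are the forms usual in simple epithelia, whereas DSG3, DSC3 and PKP1 are typical of stratified epithelia.

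The stretches before the start sites of 4 members are shown because 2 of them, DSG2 and DSC2, fell in HCC827/GR cells while the adjacent DSC3 and the unlinked DSP did not pass the test. The sequences are RefSeq promoter windows on GRCh38.p14, cut to the part before any exon annotated in GENCODE release 29, and read 5′ to 3′ on the strand of the gene. Capitals mark CAGGTG, or CACCTG where it lies on the other strand, which is the E-box bound by repressors of the ZEB and SNAI families.
DSG2, chr18:31497927-31498042, plus strand: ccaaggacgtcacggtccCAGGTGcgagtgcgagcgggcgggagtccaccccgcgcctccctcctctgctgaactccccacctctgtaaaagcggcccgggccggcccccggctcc
DSC2, chr18:31102523-31102671, minus strand: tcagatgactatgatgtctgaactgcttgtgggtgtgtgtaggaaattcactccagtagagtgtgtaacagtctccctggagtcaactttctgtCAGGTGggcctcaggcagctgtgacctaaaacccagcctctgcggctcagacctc
DSC3, chr18:31042816-31042992, minus strand: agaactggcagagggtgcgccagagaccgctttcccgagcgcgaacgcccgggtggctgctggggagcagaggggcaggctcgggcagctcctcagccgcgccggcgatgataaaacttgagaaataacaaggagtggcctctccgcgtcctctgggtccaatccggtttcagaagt
DSP, chr6:7541421-7541574, plus strand: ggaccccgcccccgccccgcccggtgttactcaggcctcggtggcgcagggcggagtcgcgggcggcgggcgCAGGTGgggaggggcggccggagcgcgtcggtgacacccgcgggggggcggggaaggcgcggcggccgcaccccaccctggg
RefSeq windows of 300 bases, from 250 before to 50 after a start, were at hand for 8 members in 10 windows. No window was at hand for PKP2, or for PKP3, which was among the 4 members that fell. The E-box was found in 4 of these 10 windows, against 20.6% of all 35116 windows. Counted from the start site, DSG2 held it at -232 and -116, DSC2 at -156 from the first of its starts, and JUP at -54 and -43 from its second start. DSP, which did not pass the test, held it as well, at -178 and -85. The first match of DSG2 and of DSP lies in the stretch printed. The DSC3, DSG3, PKP1 and PERP windows held no match. By gene, 4 of 8 members had a match, against 24.1% of the 27305 genes with a window. A match is a run of letters and was not shown here to be bound.

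JUP, PKP3, DSC2 and DSG2 were lower in HCC827/GR cells, whereas DSP, PERP, PKP2 and DSC3 did not pass the test. Of the 8 genes tested, 4 were lower with an adjusted p under 0.05 and 0 were higher (limma on log2(FPKM + 1), Benjamini-Hochberg adjustment over all 16189 entries tested). At an adjusted p under 0.05, 5.71% of all entries tested were lower, 5.26% were higher and 11.0% passed in either direction. At an unadjusted p under 0.05 (limma) the counts of members were also 4 and 0. By that unadjusted rule, 4410 of the 16189 entries passed in either direction. The study selected genes from Ballgown results by a fold of at most 0.5 or at least 2 with p under 0.05. Applied here to limma p-values and to differences of log2(FPKM + 1), these thresholds left JUP, PKP3 and DSC2 lower and 0 members higher. That is 3 of 8 members lower, against 3.97% of all entries lower, 2.96% higher and 6.94% in either direction. The median log2 fold change of the 8 members was -0.56, beside 0.001 over all entries. Every one of the 8 had at least 1.16 FPKM in every library, so none passed the filter through 1 group only. All fold changes given are differences of log2(FPKM + 1), so changes of genes with few FPKM come out too small.

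Of the desmosomal cadherins, DSG2 had by far the highest level. For DSG2, replicates 1, 2 and 3 of HCC827/GR gave 38.5, 41.0 and 38.2 FPKM, and replicates 2 and 3 of HCC827 gave 68.3 and 73.6 FPKM. Both parental libraries were above all resistant ones, and the replicates lay close together in each group. The log2 fold change was -0.84 (SE 0.093, limma adjusted p = 0.0120), and the mean in HCC827/GR cells was 55.3% of the parental mean. DSG3, the desmoglein of stratified epithelia, was close to 0 in both lines, at 0.0316 and 0.0100 FPKM in HCC827/GR replicates 1 and 2, listed at 0 in replicate 3, and at 0.0472 and 0.0152 FPKM in the parental libraries. The DSG3 values overlapped between the groups and were not tested.

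DSC2 and DSC3, which lie side by side on chromosome 18, had log2 fold changes of opposite sign, of which that of DSC3 did not pass the test. DSC2 stood at 1.91, 2.17 and 1.39 FPKM in resistant replicates 1, 2 and 3 and at 6.44 and 4.90 FPKM in parental replicates 2 and 3. The groups were apart, and the log2 fold change was -1.24 (SE 0.18, limma adjusted p = 0.0215). DSC3 stood at 2.98, 2.66 and 1.62 FPKM in resistant replicates 1, 2 and 3 and at 1.16 and 1.49 FPKM in parental replicates 2 and 3. Each resistant library was thus above each parental one, although replicate 3 of HCC827/GR lay just above HCC827 replicate 3. With a log2 fold change of 0.54 (95% interval from -0.03 to 1.10) and an adjusted p of 0.200 from limma, DSC3 did not pass the test. Without HCC827/GR replicate 3 its log2 fold change was 0.72 (limma adjusted p = 0.0723).

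Among the armadillo proteins, JUP changed most. Plakoglobin, its product, sits in desmosomes and in adherens junctions. JUP stood at 7.76, 7.90 and 5.57 FPKM in resistant replicates 1, 2 and 3 and at 33.2 and 23.0 FPKM in parental replicates 2 and 3. The parental replicates differed from each other, but the lower of them was still far above every resistant library. The log2 fold change was -1.84 (SE 0.22, limma adjusted p = 0.0145), the largest among the members. PKP3, a plakophilin found broadly in epithelial desmosomes, had 6.31, 5.45 and 6.90 FPKM in resistant replicates 1, 2 and 3 against 18.1 and 18.5 FPKM in the parental ones. The groups were well apart and the parental values almost equal, with a log2 fold change of -1.42 (SE 0.12, limma adjusted p = 0.00693), the lowest p of the members. PKP2, the plakophilin of simple epithelia and heart muscle, had 1.90, 1.55 and 2.42 FPKM against 2.49 and 2.67 FPKM. Its values did not overlap, but replicate 3 of HCC827/GR lay just under HCC827 replicate 2, and the log2 fold change of -0.29 (95% interval from -0.69 to 0.11, limma adjusted p = 0.310) did not pass the test. The interval leaves room for a moderate fall or a slight rise of PKP2.

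DSP and PERP overlapped between the lines. Desmoplakin is the plakin that carries the pull of the keratin filaments, and DSP reached 19.8, 20.7 and 10.3 FPKM in the resistant libraries and 13.2 and 13.9 FPKM in the parental ones. Replicates 1 and 2 of HCC827/GR were above both parental libraries and replicate 3 was below both, so that the log2 fold change of 0.25 had an interval from -0.59 to 1.08 (limma adjusted p = 0.677). Without replicate 3 of HCC827/GR it was 0.55 (limma adjusted p = 0.0700), still short of the threshold. PERP reached 32.0, 44.6 and 28.5 FPKM in the resistant libraries and 44.8 and 32.1 FPKM in the parental ones. The log2 fold change of PERP was -0.14 (95% interval from -0.79 to 0.51, limma adjusted p = 0.778), and it became 0.10 without HCC827 replicate 2.

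**Figure D1:**
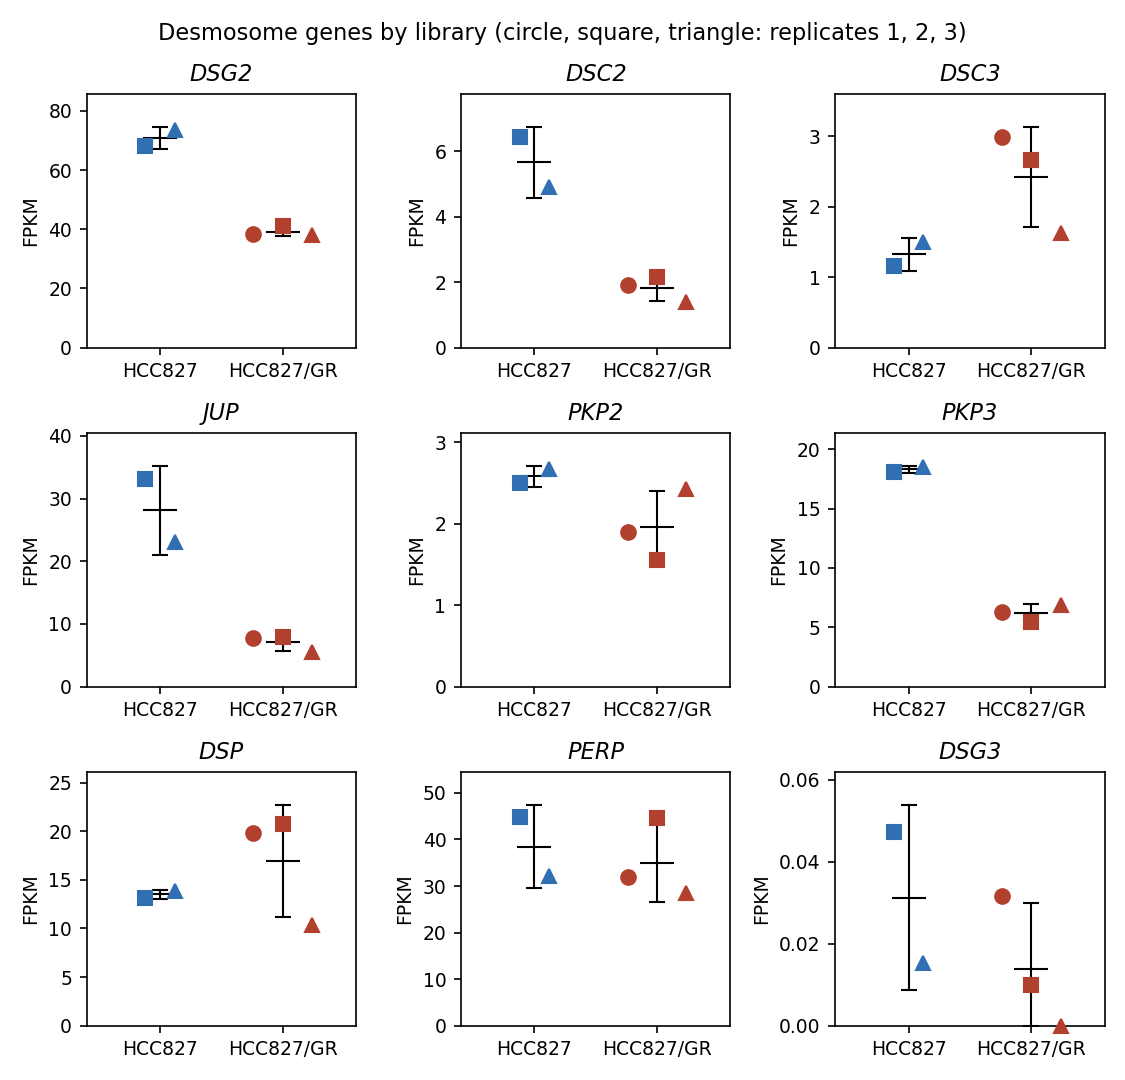
FPKM (vertical axes, linear from 0) of the 9 desmosome genes with an entry, in HCC827 (blue, 2 libraries) and HCC827/GR (red, 3 libraries), with replicate numbers shown by symbols and the mean and SD in black (the lower SD bar of DSG3 in HCC827/GR is cut at 0). JUP, PKP3, DSC2, DSG2 and PKP2 sit lower in every HCC827/GR library, DSC3 sits higher, and DSP, PERP and DSG3 overlap. PKP2 and DSC3 did not pass the test.

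Without any overlap between groups, 5 members had lower values in HCC827/GR cells (DSG2, DSC2, JUP, PKP2 and PKP3) and 1 had higher values (DSC3). Of all entries tested, 23.4% were separated in the first way, 22.8% in the second and 46.3% in either. An exact permutation test (two-sided) of 3 libraries against 2 cannot go below p = 0.1. DSG2, DSC2, JUP and PKP3 reached this smallest p, DSC3 and PKP2 gave an exact permutation p of 0.2, and DSP and PERP gave an exact permutation p of 0.4 and 0.5. The 4 calls depended on single libraries. Without HCC827/GR replicate 1 only PKP3 kept an adjusted p under 0.05, without replicate 2 DSG2 and PKP3 did, and without replicate 3 DSG2, JUP and PKP3 did. Without HCC827 replicate 2 the count was 0, and without HCC827 replicate 3 only JUP was called (limma, adjusted p of DSG2, DSC2, JUP and PKP3 from 0.0264 to 0.111 over these fits). Without HCC827/GR replicate 1 or 2, 4 members were lower at an unadjusted p under 0.05 (limma). Of all entries, 3687 of 16170 and 3815 of 16345 passed that rule in either direction. Whichever library was left out, the log2 fold change of the 4 genes stayed between -0.89 and -0.79 for DSG2, -1.41 and -1.07 for DSC2, -2.09 and -1.59 for JUP and -1.49 and -1.34 for PKP3. With the replicate number as a block, 0 members passed the adjusted p. At an unadjusted p under 0.05, 4 were then lower and 0 higher, beside 3545 of 16189 entries in either direction. With a covariate for each library's total of low and middle log2(FPKM + 1) values, 0 members passed the adjusted p. At an unadjusted p under 0.05, 4 were then lower and 1, DSC3, was higher, beside 3410 of 16189 entries in either direction. Without HCC827/GR replicate 3, 5 members were lower and 2, DSP and DSC3, higher at an unadjusted p under 0.05, beside 4053 of 16459 entries.

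The make-up of the desmocollins differed between the lines. Because FPKM is per length, levels of family members can be added. DSC2 made up 84.7% and 76.7% of the summed desmocollin FPKM in HCC827 replicates 2 and 3, and 39.1%, 44.9% and 46.1% in HCC827/GR replicates 1, 2 and 3. The share was 43.3% ± 3.76 (SD, n = 3 libraries) against 80.7% ± 5.70 (SD, n = 2), a difference of -37.3 percentage points (exact permutation p = 0.1 in a two-sided test, the lowest the design allows, and 0.15 adjusted over the 3 shares compared). DSC2 was thus the more abundant desmocollin in both parental libraries and DSC3 in all 3 resistant ones. The summed level of DSC2 and DSC3 was 4.25 ± 1.07 FPKM in HCC827/GR cells and 6.996 ± 0.854 FPKM in HCC827 cells.

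PKP3 remained the main plakophilin measured. Its share of the sum of PKP2 and PKP3 was 76.8%, 77.8% and 74.0% in the HCC827/GR libraries and 87.9% and 87.4% in the HCC827 libraries, a difference of -11.4 percentage points (exact permutation p = 0.1, adjusted 0.15). Together PKP2 and PKP3 came to 8.18 ± 1.16 FPKM (SD, n = 3) in the resistant line against 20.9 ± 0.446 FPKM (SD, n = 2). DSG2 was nearly the whole of the sum of DSG2 and DSG3, with at least 99.9% in every library, so the desmoglein level is that of DSG2.

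**Figure D2:**
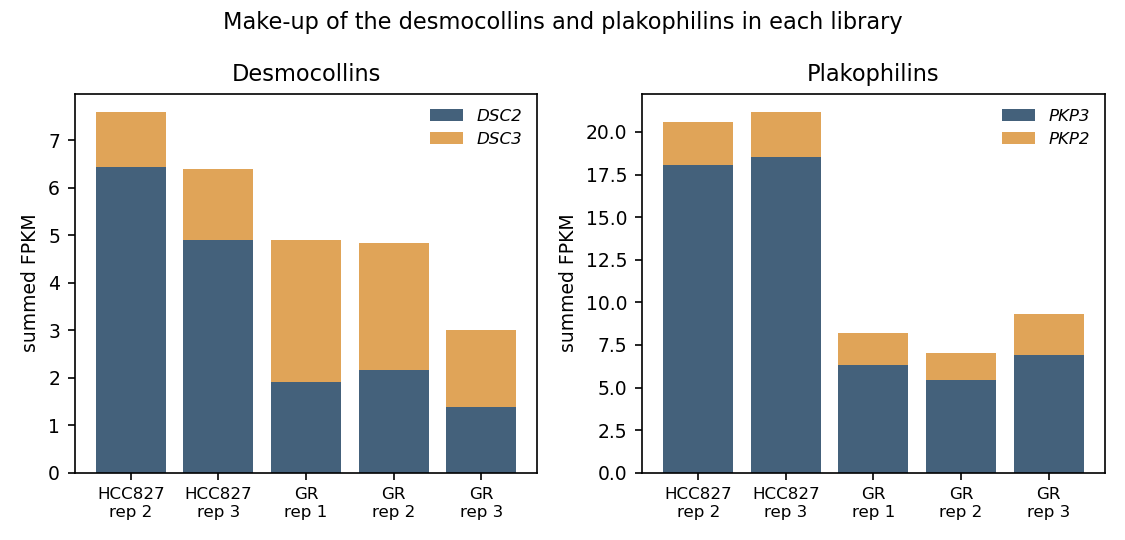
Summed FPKM (vertical axes from 0) of the desmocollins DSC2 and DSC3, and of the plakophilins PKP2 and PKP3, in each of the 5 libraries, stacked by gene. DSC2 falls from the larger part in the 2 parental libraries to the smaller part in the 3 HCC827/GR libraries, and PKP3 stays the larger part throughout while the plakophilin sum falls.

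In order of mean FPKM, the parental libraries ran DSG2, PERP, JUP, PKP3, DSP, DSC2, PKP2, DSC3 and DSG3. Only the neighbours PERP and JUP overlapped in that order. In HCC827/GR cells the order was DSG2, PERP, DSP, JUP, PKP3, DSC3, PKP2, DSC2 and DSG3. There, DSG2 overlapped with PERP, JUP with PKP3, DSC3 with PKP2 and PKP2 with DSC2, so the order within these pairs is not resolved. DSP stood at 13.5 ± 0.483 FPKM (SD, n = 2) in HCC827 cells, below JUP at 28.1 ± 7.15 FPKM and PKP3 at 18.3 ± 0.318 FPKM. In HCC827/GR cells DSP had 17.0 ± 5.77 FPKM (SD, n = 3), above JUP at 7.08 ± 1.31 FPKM and PKP3 at 6.22 ± 0.728 FPKM.

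Ratios of members to related genes within a library do not depend on the scaling between libraries, apart from the pseudocount of 1. Plakoglobin was set against its close relative beta-catenin, the product of CTNNB1 and the usual partner of E-cadherin. CTNNB1 reached 45.1, 43.8 and 47.1 FPKM in the resistant libraries and 47.1 and 45.4 FPKM in the parental ones, and its log2 fold change was -0.03 (95% interval from -0.26 to 0.20). The log2 ratio of JUP to CTNNB1 was -2.53 ± 0.296 (SD, n = 3) in HCC827/GR cells and -0.72 ± 0.322 (SD, n = 2) in HCC827 cells, with no overlap. The change was therefore unequal between these armadillo genes. The log2 ratio of DSP to CDH1, which encodes E-cadherin, was 1.09 ± 0.258 against -1.10 ± 0.338, so desmoplakin mRNA was above E-cadherin mRNA in every resistant library and below it in every parental one. For DSG2 to CDH1 the log2 ratio was 2.31 ± 0.262 against 1.21 ± 0.365, since CDH1 fell more than DSG2. For DSC2 to DSC3 it was -0.27 ± 0.166 against 1.51 ± 0.382, and for PKP2 to PKP3 -1.29 ± 0.0735 against -2.43 ± 0.0278. Of the 7 ratios compared, 6 reached the smallest exact permutation p of 0.1 (0.117 adjusted over the 7). They include DSG2 to DSG3, which mostly repeats the change of DSG2 because DSG3 was near 0. The ratio of DSP to periplakin (PPL) gave an exact permutation p of 0.2.

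The other desmosomal cadherins were near 0 in both lines. DSC1 and DSG4 did not exceed 0.0538 FPKM in any library. Of the 2 entries named DSG1, the one with the annotated transcripts ran from 0.0771 to 0.241 FPKM, and the other, with no annotated transcript, was above 0 in HCC827/GR replicate 1 alone, at 1.31 FPKM. PKP4, which encodes the plakophilin relative p0071, had 3.02, 2.95 and 2.99 FPKM against 2.88 and 3.42 FPKM, a log2 fold change of -0.06 (95% interval from -0.32 to 0.20).

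Genes that work with desmosomes were described through lists of partners. For comparison with the counts in these lists, 5.71% of all entries tested were lower and 5.26% higher at an adjusted p under 0.05. In the list of plakins and cornified envelope partners, 6 of 8 genes were tested, 0 were lower and 2 were higher with an adjusted p under 0.05 from limma, and at an unadjusted p under 0.05 PPL and EVPL were lower. KAZN, whose product kazrin binds periplakin, had a log2 fold change of 0.83 (adjusted p = 0.0226) from 0.216 and 0.202 FPKM in HCC827 cells to 1.10, 1.10 and 1.25 FPKM in HCC827/GR cells. MACF1, a large linker of actin and microtubules, had a log2 fold change of 0.44 (adjusted p = 0.0429). KAZN passed the filter through the resistant libraries, where it is high. For both genes, the adjusted p was above 0.05 when any 1 library was left out. PPL, for periplakin, had 2.78, 3.51 and 3.10 FPKM against 9.50 and 5.32 FPKM, and EVPL, for envoplakin, 3.52, 2.87 and 2.56 FPKM against 6.51 and 4.76 FPKM. Their log2 fold changes of -0.98 and -0.73 had an adjusted p of 0.0736 and 0.0667 from limma and did not pass. The value of PPL rested on the parental replicates, since it was -0.62 (adjusted p = 0.144) without HCC827 replicate 2 and -1.35 (adjusted p = 0.0473, limma) without HCC827 replicate 3.

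Of 12 intermediate filament genes, 4 were tested and 2 were lower, against 5.71% of all entries tested. KRT19 had a log2 fold change of -1.52 (adjusted p = 0.00996, but 0.0525 without HCC827/GR replicate 1 and 0.0544 without HCC827 replicate 2) and KRT18 of -0.93 (adjusted p = 0.0413, and 0.0851 to 0.147 when 1 library was left out). These keratins fill simple epithelial cells and are among those that desmoplakin anchors. KRT8, the partner of KRT18, had 172.2, 177.8 and 127.3 FPKM against 231.8 and 304.3 FPKM with an adjusted p of 0.101. VIM, for the mesenchymal filament protein vimentin, lay higher in every resistant library, at 106.3, 92.9 and 132.7 FPKM against 37.8 and 63.3 FPKM, with a log2 fold change of 1.14 that did not pass (limma adjusted p = 0.0700). The list held 4 genes with no entry of their own, of which KRT7 and KRT15 lie in loci named for another gene. Of 11 adherens junction genes, all tested, 2 were lower and 1 was higher, against 5.71% and 5.26% of all entries tested. CDH3, for P-cadherin, fell by 4.59 on the log2 scale (adjusted p = 0.00248), CDH1 fell by 1.93 (adjusted p = 0.0125, but 0.0798 and 0.0550 without HCC827 replicate 2 or 3), and CDH2, for N-cadherin, rose by 2.61 (adjusted p = 0.00464, limma).

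In the list of 20 regulators, 18 were tested, 4 were lower and 2 were higher, against 5.71% and 5.26% of all entries tested. GRHL2, an epithelial transcription factor, was at 0.0122, 0.0203 and 0.00963 FPKM in the resistant libraries and at 3.82 and 5.59 FPKM in the parental ones, a log2 fold change of -2.47 (limma adjusted p = 0.00469). GRHL2 was thus close to 0 in all 3 resistant libraries and passed the filter through the parental ones. EGFR fell by 3.31 (limma adjusted p = 0.00926, but 0.0705 and 0.0565 without HCC827 replicate 2 or 3). ZEB2, a repressor that binds E-boxes, rose by 0.95 (limma adjusted p = 0.0173) and passed the filter through the resistant libraries. Its call was lost when any 1 library was left out (adjusted p from 0.0575 to 0.0831) and with the entries of its symbol summed (0.120). ZEB1, a repressor of the same family, had 4.46, 4.88 and 4.59 FPKM against 1.77 and 2.69 FPKM and rose by 0.82 (limma adjusted p = 0.0372), a call kept only without HCC827 replicate 3 among these fits (0.0954 to 0.109 in the others). SNAI1 and SNAI2, which encode repressors that bind the same letters, did not pass. SNAI1 lay lower in every resistant library, at 1.49, 1.64 and 1.90 FPKM against 2.26 and 2.58 FPKM, with a log2 fold change of -0.36 (limma adjusted p = 0.138). SNAI2 overlapped, at 12.9, 12.3 and 3.31 FPKM against 1.34 and 6.07 FPKM. The other 2 calls were ATP2A2, for the calcium pump of the endoplasmic reticulum, and GRHL1, a relative of GRHL2, which fell by 0.78 and 0.74 (limma adjusted p = 0.0200 and 0.0232). Both calls were lost when any 1 library was left out, with an adjusted p from 0.0601 to 0.0931 for ATP2A2 and from 0.0648 to 0.0926 for GRHL1. TP63, which was below the filter, had 0.234 and 0.191 FPKM in HCC827 cells and was listed at 0 in HCC827/GR replicates 1 and 2, with 0.00414 FPKM in replicate 3.

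**Figure D3:**
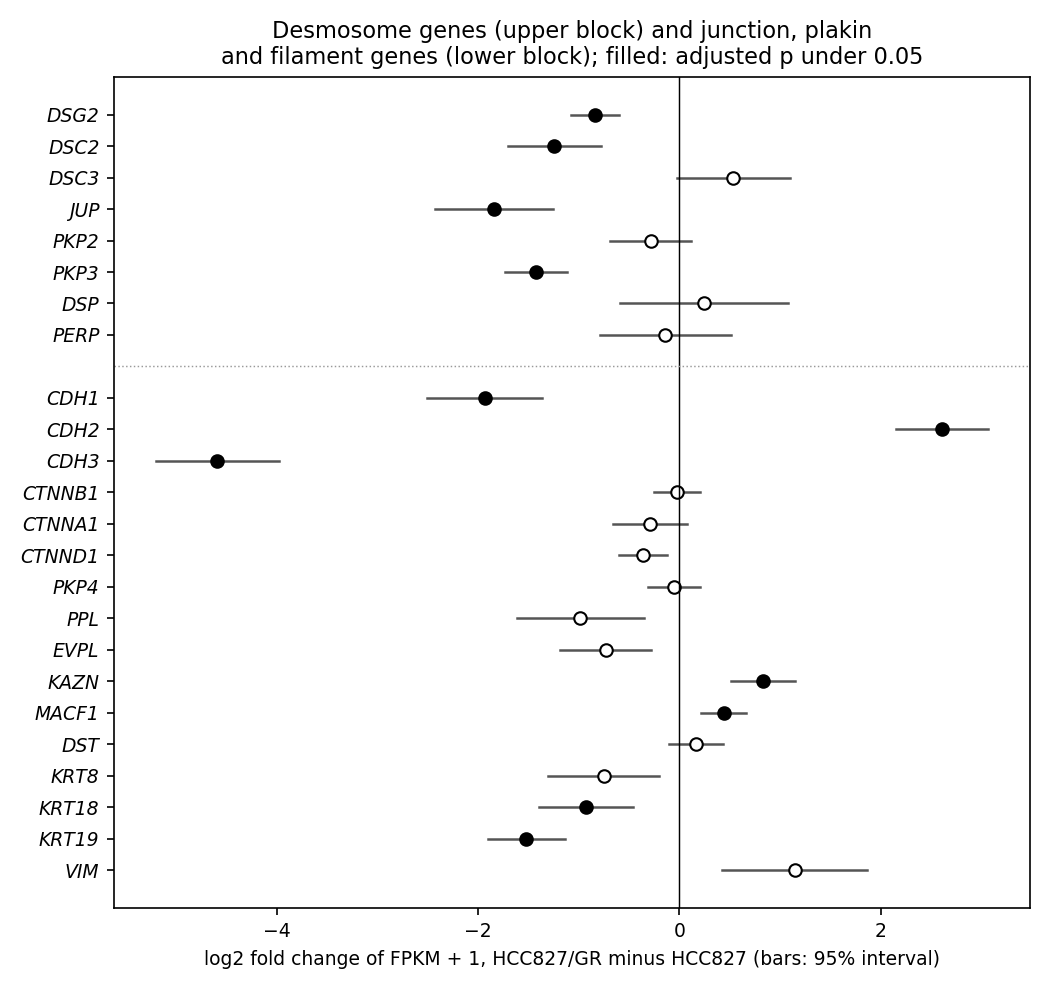
Log2 fold change of FPKM + 1 (horizontal axis, HCC827/GR minus HCC827) with its 95% interval for the 8 desmosome genes tested (upper block) and for adherens junction, plakin and filament genes (lower block). Filled points have an adjusted p under 0.05, and among the desmosome genes these are DSG2, DSC2, JUP and PKP3, all to the left of 0.

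All desmosomal cadherin genes lie in 1 cluster on chromosome 18 of GRCh38, from 30990008 to 31549008, with the DSC genes on the minus strand and the DSG genes on the plus strand. DSC3 lies from 30990008 to 31042815, DSC2 from 31058840 to 31102522 and DSG2 from 31498043 to 31549008. DSP (7541575 to 7586717) and PERP (138088505 to 138107511) lie on chromosome 6, JUP (41754604 to 41786931) on 17, PKP2 (32790745 to 32896840) on 12 and PKP3 (392614 to 404908) on 11. Along the cluster, DSC3 had a positive and DSC2 and DSG2 a negative log2 fold change, with DSC1, DSG1, DSG4 and DSG3 near 0 FPKM between them. Of the 5 nearest tested protein-coding genes on each side, 2 passed the adjusted p, against 11.0% of all entries tested. Both, CHST9 and CDH2, were higher in HCC827/GR cells, CHST9 by 2.06 (limma adjusted p = 0.00629) and CDH2 by 2.61 on the log2 scale. CHST9 passed the filter through the resistant libraries. CDH2, the nearest of the 5 before the cluster, ends at 28177446. The 5 genes before the cluster had a median log2 fold change of 0.105. The 5 genes after DSG2 had a median log2 fold change of -0.03, and none of them passed the adjusted p. At an unadjusted p under 0.05 only, SS18 before the cluster and RNF138 after it were lower, and MAPRE2 after it was higher (limma). DSG2 shares 6863 bases with the antisense gene DSG2-AS1, which had 0.665, 0.849 and 0.857 FPKM against 1.57 and 1.37 FPKM. Whether reads were counted by strand is not given in the sources used here, so reads of the pair cannot be told apart there, although DSG2-AS1 was far below DSG2 in each library. DSC2 shares 935 bases with DSCAS, which did not exceed 0.0382 FPKM.

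**Figure D4:**
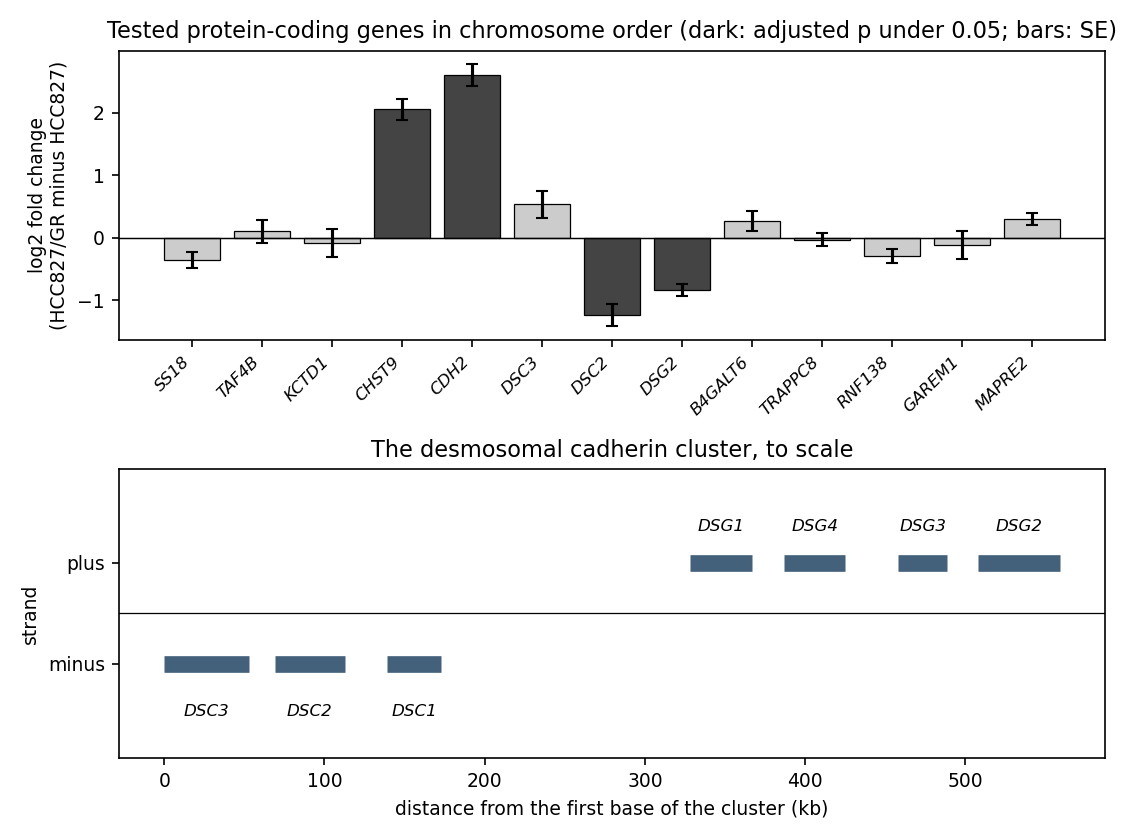
Upper panel: log2 fold change (HCC827/GR minus HCC827, bars with standard errors, dark for an adjusted p under 0.05) of DSC3, DSC2, DSG2 and the 5 nearest tested protein-coding genes on each side, in chromosome order. Lower panel: the 7 genes of the cluster to scale by distance (kb) from its first base and by strand. In chromosome order, CDH2 and DSC3 are positive and DSC2 and DSG2 negative, though DSC3 did not pass the test. The genes after DSG2 lie between -0.29 and 0.298.

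DSP had its lowest value in HCC827/GR replicate 3. The 5 tested protein-coding entries whose profile over the 5 libraries was nearest to that of DSP (Euclidean distance between centred log2(FPKM + 1) values) were CYP2U1, FAM129B, STX3, ZNF658 and AP1S3, at distances from 0.102 to 0.151. FAM129B, for example, reached 99.6, 98.7 and 56.3 FPKM in the resistant libraries and 69.1 and 65.8 FPKM in the parental ones. STX3, which encodes a syntaxin, had 16.5, 16.5 and 8.60 FPKM against 11.4 and 10.4 FPKM. These genes were chosen for their likeness to DSP over the same libraries, so their low value in that library is a description and no independent sign. FAM129B and AP1S3 have further entries in the table. Among the other members, DSG2, DSG3, DSC2, DSC3, JUP and PERP also had their lowest HCC827/GR value in replicate 3, while PKP2 and PKP3 had their highest there.

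Epithelial markers of the labelled cell type were present as a sum in both lines, and the sum was lower in the resistant line. The 9 epithelial markers with an entry summed to between 489.1 and 628.4 FPKM in HCC827/GR libraries. In HCC827 libraries they summed to between 1179 and 1281 FPKM. Of the 9, 6 were lower with an adjusted p under 0.05 (limma), against 5.71% of all entries tested. ESRP1, which was among these 6, was near 0 in every HCC827/GR library and passed the filter through the parental ones. Of the lung adenocarcinoma markers only NKX2-1 could be tested, and it was lower (limma adjusted p = 0.0115), at 0.963, 0.763 and 0.415 FPKM against 4.60 and 4.003 FPKM. SFTPB and SFTPC were near 0 in both lines, with highest values of 0.139 and 0.0197 FPKM, and NAPSA has no entry of its own. Squamous or basal markers summed to at most 1.38 FPKM, fibroblast markers to at most 1.17 FPKM and leukocyte markers to at most 0.378 FPKM in any library, and the defining leukocyte marker PTPRC was below 0.1 FPKM in all 5. Endothelial markers summed to 3.38 and 4.44 FPKM in HCC827 cells, almost all from 1 PECAM1 entry, with VWF, CDH5 and KDR below 0.1 FPKM. The part of a change in cell make-up in the desmosome results was not tested, and in these bulk samples fewer cells of a type and less RNA per cell cannot be told apart. Words of 50 bases shared with transcripts of other genes made up 0% of DSP, JUP and PKP3 sequence and at most 5.02%, in PKP2, of that of the other members.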

How the data were processed

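The authors deposited 1 table of FPKM values, made per the paper's methods by trimming with Cutadapt, mapping with Bowtie2 and TopHat2, assembly with StringTie and estimation with StringTie and Ballgown. The labels' processing notes name hg18, but 135164 of 135299 Ensembl transcript identifiers in the table were found in GENCODE release 29 (GRCh38), which gave the positions. The labels describe a small-RNA library and the paper an mRNA library, and this was not settled here. Groups came from the sample titles, and 1 FPKM column that matched no sample was left out. FPKM gives no read counts, so no depth or counting error could be stated.

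HCC827/GR was compared with HCC827 in R 4.3.3 by two-sided moderated tests of limma 3.58.1 (trend in eBayes) on log2(FPKM + 1). Entries needed a mean of 0.5 FPKM or more, with Benjamini-Hochberg adjustment over all of them. The fit was tested on simulated data. Permutation tests, sequences and figures were done in Python 3.11.15 (figures in matplotlib 3.10.9). The members and lists were chosen with earlier results of these data known. Named were all members, the cadherin, plakin and catenin genes set against them, in each list at most 4 genes with an adjusted p under 0.05 by size of change, the neighbours on chromosome 18 and the 5 profiles nearest to DSP. EVPL, KRT8, VIM, ATP2A2, GRHL1, SNAI1, SNAI2, TP63, SS18, RNF138, MAPRE2, ESRP1, CLDN7, ELF3 and genes near 0 were added after their values were seen. PKP1 was in no share or ratio. The alternatives tried were each library left out, the replicate block, a library-size covariate as Ballgown uses (each library's sum of log2(FPKM + 1) up to the upper quartile, not its depth), no trend, quantile normalization, median-ratio scaling, a filter at 1 FPKM or none, summed entries, a pseudocount of 0.1 and the ratio of mean FPKM.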

Additional observations from a re-analysis of the deposited data

How the results depend on the processing

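The 4 members that were lower stayed at 4 with a pseudocount of 0.1, both filters, both scalings, no trend and summed entries. With the library-size covariate, a sum of log2(FPKM + 1) and not a depth, the counts at an adjusted p under 0.05 became 0 members, 0 plakin genes higher, 0 filament genes lower, 1 adherens junction gene lower and 0 higher, 1 regulator lower and 0 higher, and 77 entries lower and 68 higher among all tested. With the replicate number as a block every such count was 0, over all entries too (3545 at an unadjusted p under 0.05), which leaves 1 residual degree of freedom. The labels do not say whether same-numbered libraries were handled together. Their deviations from the group means correlated at 0.033 and 0.015. With 2 parental libraries, whose deviations mirror each other, these values cannot settle a pairing. With no filter 0 plakin genes were higher, 1 filament gene was lower, 0 regulators were higher and 504 entries were higher. With a mean of at least 1 FPKM 1 plakin gene and 1 regulator were higher, since KAZN and ZEB2 fell below that filter and were not tested. Without the trend or with quantile normalization 1 plakin gene was higher, and with summed entries 1 regulator was. Leaving out a library, where a lone parental library is assumed to vary like the others, gave 0 to 3 members lower, 0 to 1 plakin genes lower and 0 higher, 0 to 1 filament genes lower, 1 to 2 adherens junction genes lower, 1 to 2 regulators lower and 0 to 1 higher, and 248 to 434 entries lower and 181 to 450 higher. PERP then ran from -0.37 to 0.097, PKP4 from -0.15 to 0.039 and ZNF658 from -0.019 to 0.45, and these 3 changed sign without passing the test in any fit. The difference in the log2 ratio of DSC2 to DSC3 ran from -2.05 to -1.51 and was -2.38 with a pseudocount of 0.1, where that of DSG2 to DSG3 was -0.65, against -1.78 and -0.81. The log2 ratio of the mean FPKM gave -1.64 for DSC2. Other causes of these shifts were not tested. The FPKM values carry no depth, so precision rests on 5 libraries.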
